A study of Mus musculus with 4 samples.

Results

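The clustered histone genes are the histone genes whose array names begin with Hist1h, Hist2h, Hist3h or Hist4h, after the genomic clusters that hold them. All probes with such names were taken, whatever their values, which gave 34 of the 27962 gene names on the array, with 44 of its 41174 non-control probes. By the letter and digit after the cluster number, 8 probes belonged to H1, 15 to H2A, 10 to H2B, 3 to H3 and 8 to H4. The 36 probes whose own accession matched RefSeq lay on mouse chromosome 13 (Hist1), 3 (Hist2), 11 (Hist3) and 6 (Hist4). RefSeq now uses other symbols for them, and the array names are kept here.

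Histone proteins package DNA: H2A, H2B, H3 and H4 form the core of the nucleosome, and the linker histone H1 binds the DNA between cores. Most genes of these clusters are transcribed mainly in S phase, when newly copied DNA has to be packaged. Most of their mRNAs end in a stem-loop bound by the protein encoded by Slbp, in place of a poly(A) tail. In the thymus, T cell precursors divide chiefly at immature stages, before they mature into CD8+ cells with a high level of T cell receptor.

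The data compared CD8+ T cells made in culture with CD8+ cells of the thymus, both from C57Bl/6 mice. The in vitro-derived cells grew for 35 days from Lin-Sca1+CD117+ marrow cells of donors aged 6 to 8 weeks, on OP9-DL1 stromal cells with Flt3 ligand and IL-7. The thymic cells came from donors aged 4 to 5 weeks, and neither kind received a further treatment. Both kinds were sorted as CD8+ with high TCR beta, and there were 2 RNA preps of each, called biological replicates in the design text, which names no separate animals. Every in vitro prep shared an array once with every thymic prep, on 4 two-colour Agilent arrays. In vitro RNA always carried the dye Cy5 and thymic RNA always Cy3, so that neither a dye effect on a probe nor the age of the donors can be told apart from the difference between culture and thymus. The sort is the step that would remove cells of the feeder line from the culture preps. The p-values and SEs below describe only these preps. They combine the spread of a probe's own preps (2 degrees of freedom) with that over all tested probes (3.19 degrees of freedom). An SE can therefore be larger than the preps of a probe alone would give. An exact permutation test of 2 against 2 preps cannot give a p under 0.333. In sorted populations, more cells in S phase and more histone RNA per cell cannot be told apart.

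Promoters of 4 genes from both ends of the range of probe ratios described below are shown, because they carry the sequence elements by which histone genes are known. They are those of the 2 highest and the 2 lowest probe ratios among genes whose tested probe listed 1 RefSeq gene and whose promoter was in the RefSeq table (GRCm38.p6). Hist3h2a is shown for its lowest probe only, and its other probes were called higher. Each runs from 250 bases before the annotated start to 50 bases after it, 5′ to 3′ on the gene's strand. Capitals mark CCAAT (the CCAAT box), TATAAA (the TATA box), ATTTGCAT (the octamer) and AAACACA (an element of H1 promoters), searched on both strands; none of these motifs contains another.
Hist1h1a (RefSeq H1f1, chr13:23763418-23763717, forward strand): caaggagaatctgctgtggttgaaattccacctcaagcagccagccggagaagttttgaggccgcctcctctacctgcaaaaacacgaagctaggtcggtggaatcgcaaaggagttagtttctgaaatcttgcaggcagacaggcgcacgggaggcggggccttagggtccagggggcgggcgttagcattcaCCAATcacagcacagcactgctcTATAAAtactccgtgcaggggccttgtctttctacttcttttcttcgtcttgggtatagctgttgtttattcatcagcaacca
Hist1h1b (RefSeq H1f5, chr13:21780576-21780875, reverse strand): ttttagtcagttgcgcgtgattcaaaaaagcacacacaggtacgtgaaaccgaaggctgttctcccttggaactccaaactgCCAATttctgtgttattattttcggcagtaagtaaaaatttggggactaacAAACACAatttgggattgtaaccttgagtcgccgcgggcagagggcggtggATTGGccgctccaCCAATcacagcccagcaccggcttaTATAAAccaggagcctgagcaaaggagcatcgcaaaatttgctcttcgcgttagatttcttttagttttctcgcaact
Hist3h2ba (RefSeq H2bu2, chr11:58948661-58948960, forward strand): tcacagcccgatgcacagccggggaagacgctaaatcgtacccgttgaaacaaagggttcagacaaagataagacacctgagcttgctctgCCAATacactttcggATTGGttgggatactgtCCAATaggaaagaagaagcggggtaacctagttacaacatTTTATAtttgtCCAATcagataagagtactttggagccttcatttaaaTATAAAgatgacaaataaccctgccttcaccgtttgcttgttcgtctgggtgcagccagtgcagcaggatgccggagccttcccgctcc
Hist3h2a (RefSeq H2aw, chr11:58954435-58954734, forward strand): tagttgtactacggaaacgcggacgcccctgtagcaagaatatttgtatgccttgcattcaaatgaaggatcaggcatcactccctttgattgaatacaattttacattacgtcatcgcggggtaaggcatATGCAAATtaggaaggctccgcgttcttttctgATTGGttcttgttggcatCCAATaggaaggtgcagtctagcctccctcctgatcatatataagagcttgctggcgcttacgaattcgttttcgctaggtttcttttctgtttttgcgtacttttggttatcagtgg
Hist1h1b held 3 CCAAT matches, 1 TATAAA match and 1 AAACACA match, and Hist1h1a held 1 CCAAT and 1 TATAAA match. Hist3h2ba held 4 CCAAT and 2 TATAAA matches, and Hist3h2a 2 CCAAT matches and 1 octamer. Of the 27 RefSeq genes of tested probes, 23 had a promoter in the table; Hist2h2be, Hist2h4, Hist1h3a and Hist1h2bc had none.

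The elements were not spread evenly over the types. CCAAT was present in 21 of the 23 histone promoters (91.3%), against 37.4% of all 32851 promoters of 300 bases in the table. TATAAA was present in 16 (69.6%), against 13.6% of all promoters. The octamer was found in 4 of 8 H2A and 3 of 4 H2B promoters and in none of the 5 H1, 2 H3 and 4 H4 promoters, against 1.74% of all promoters. AAACACA was found in 4 of 5 H1 promoters, the exception being Hist1h1a, in 1 of 8 H2A and in 2 of 4 H2B promoters, against 7.18% of all. A match is a string of letters and not a measured binding site.

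Nearly every tested probe of the clustered histone genes gave a higher signal for in vitro-derived than for thymic cells. Of the 33 probes that could be tested (29 genes), 30 were called higher, 2 were called lower (Hist2h2be and Hist3h2ba) and 1 of Hist3h2a was not called. A call is an adjusted p under 0.05 in limma, with Benjamini-Hochberg adjustment over all 27224 tested probes. Over the whole array 26.6% of tested probes were called higher, 25.6% lower and 52.2% in either direction. The median log2 ratio, in vitro over thymic, was 1.36 over the histone probes (2.57-fold) and 0.03 over all tested probes. A change of at least 2-fold was called for 26 histone probes, all higher, and such calls made up 5.82% of the array. Counted by gene, with the brightest probe or with the mean of a gene's probes, 27 of 29 were called higher and 2 lower.

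The levels of the preps separated the kinds as well. A prep level is the mean log2 intensity of the probe plus that prep's deviation, taken from the 4 ratios. Levels of the 2 in vitro and the 2 thymic preps did not overlap for 32 of 33 probes, with the in vitro preps above in 30 and below in 2. Over the array the in vitro preps lay above without overlap for 41.6% of probes and below for 36.6%. Histone probes were bright: among the 5874 probes at least as bright as the median histone probe, the median log2 ratio was -0.01 and 31.1% were called higher. The loess normalization centres the ratios near 0 at every intensity, so this median was largely set in advance. It does not show whether brightness has a part in the histone ratios, which was not tested.

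**Figure D1:**
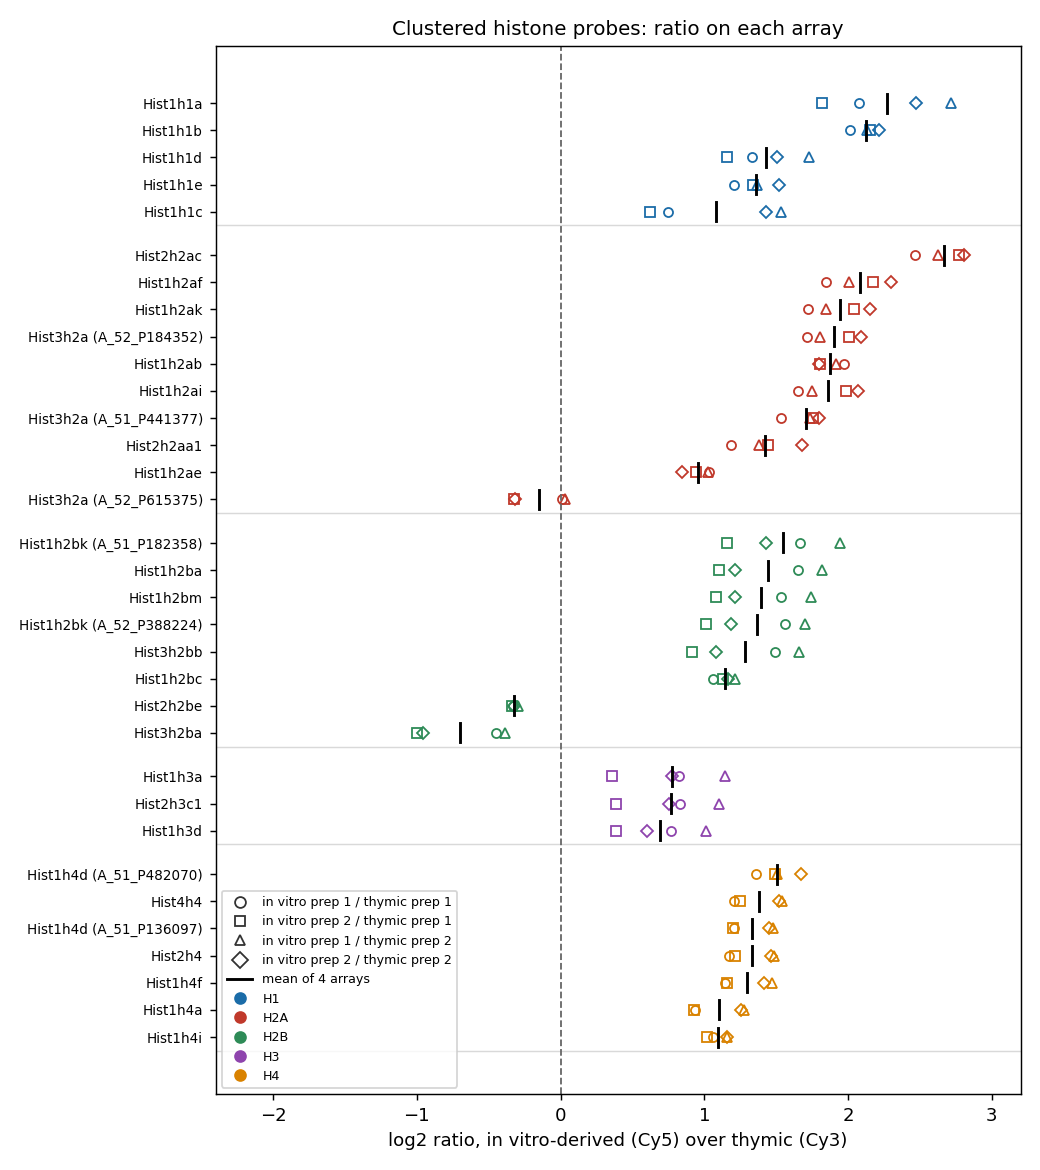
Log2 ratios, in vitro-derived over thymic (horizontal axis), of the 33 tested histone probes on each of the 4 arrays, by histone type; symbols give the pair of preps and the black bar the mean of the 4 arrays. Probes of Hist2h2be and Hist3h2ba and 1 probe of Hist3h2a have means below 0, and the H3 probes (0.69 to 0.78 on average) lie below the H1 and H4 probes.

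Detection was alike in both channels. Of the 44 histone probes, 35 or 36 were well above background in Cy5 (in vitro) and 35 in Cy3 (thymic) on each array, or 79.5% to 81.8%. Over all non-control spots the shares were 66.5% to 70.9% in Cy5 and 63.7% to 65.6% in Cy3. By the scanner software's more lenient mark (positive and significant), 41 were detected in Cy5 and 36 to 39 in Cy3. The 9 probes not tested for lack of signal were single probes of Hist1h1t, Hist1h2ac, Hist1h2be, Hist1h2bc and Hist4h4, 2 of Hist1h1d and 2 of Hist2h2aa2, and 7 of them were well above background in neither channel of any array. Hist1h1t, a linker histone of the testis, was among them. No histone spot was saturated.

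The probes do not all tell single genes apart, because the genes of a type are near-identical copies. Of the 33 tested probes, 12 listed accessions of several RefSeq genes. All 12 were called higher, with a median log2 ratio of 1.38. Of the 21 that listed at most 1 gene, 18 were called higher and 2 lower, with a median of 1.36. A ratio under a gene's name below may therefore include its copies, also where only 1 gene is listed, since the probe sequences were not used here.

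All 5 tested probes of linker histone H1 were called higher, each for a different gene and each listing 1 RefSeq gene, with a median log2 ratio of 1.43. Hist1h1a had levels of 12.41 and 12.16 in in vitro preps 1 and 2, against 10.34 and 9.69 in thymic preps 1 and 2. Its log2 ratio was 2.27 ± 0.22 (SE, n = 2 preps of each kind, as for all ratios below; adjusted p = 8.7e-04), or 4.83-fold. Hist1h1b had levels of 12.20 and 12.30 in the in vitro preps, against 10.17 and 10.08 in the thymic preps. Both genes separated the kinds by more than the spread of their preps, and Hist1h1b had the smaller spread, with a ratio of 2.13 ± 0.07 (adjusted p = 4.5e-05).

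The other H1 genes differed less. Hist1h1d, on its 1 probe with signal, had levels of 12.09 and 11.89 in vitro, against 10.75 and 10.38 in thymic preps (log2 ratio 1.43 ± 0.14). Hist1h1e had 12.00 and 12.14 in vitro, against 10.80 and 10.63 in thymic preps (1.36 ± 0.09). Hist1h1c had 11.05 and 10.94 in vitro, against 10.31 and 9.51 in thymic preps (1.08 ± 0.26, adjusted p = 0.019). Its thymic preps lay farther apart than those of any other tested histone probe, by 0.80, without reaching the in vitro preps. Without in vitro prep 1 the ratio of Hist1h1c was 1.02 with an adjusted p of 0.066, and the call was lost.

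H2A, which pairs with H2B in the nucleosome, held the highest ratio. Of 10 tested probes 9 were called higher and 1 was not called, with a median log2 ratio of 1.87 and adjusted p of 5.6e-05 to 6e-04 for the 9. Hist2h2ac had levels of 17.31 and 17.55 in the in vitro preps, against 14.81 and 14.71 in the thymic preps, a log2 ratio of 2.67 ± 0.10 (6.36-fold). This probe also listed the RefSeq genes H2ac18, H2ac19 and H2ac21, of which Hist2h2aa1 (H2ac18) had a probe of its own at 1.42 ± 0.12. The groups lay more than 2 log2 units apart for Hist2h2ac, and which copy carried the signal cannot be read from the array.

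Hist1h2af had levels of 15.79 and 16.10 in vitro, against 13.93 and 13.79 in thymic preps (2.08 ± 0.12), on a probe that listed 4 genes. Hist1h2ak, on a probe that listed 1, had 15.41 and 15.73 in vitro, against 13.69 and 13.57 in thymic preps (1.94 ± 0.12). Hist1h2ab (1.87 ± 0.07) and Hist1h2ai (1.86 ± 0.12) were close to these. Hist1h2ae was the lowest of the called H2A probes, with levels of 8.42 and 8.28 in vitro, against 7.37 and 7.42 in thymic preps (0.96 ± 0.07). None of these probes had overlapping kinds.

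The probes of Hist3h2a did not give 1 answer. Probe A_52_P184352 had levels of 15.69 and 15.98 in vitro, against 13.98 and 13.89 in thymic preps (1.90 ± 0.11), and probe A_51_P441377 gave 1.71 ± 0.08. Probe A_52_P615375 had levels of 11.16 and 10.83 in vitro, against 11.15 and 11.14 in thymic preps. Its kinds overlapped, and its ratio of -0.15 ± 0.12 was not called (adjusted p = 0.35). Probes A_52_P184352 and A_52_P615375 both listed H2aw, the RefSeq name of Hist3h2a, and no other gene. With median centring in place of the intensity-dependent loess the third probe was called higher, at 0.49, and without in vitro prep 1 it was called lower, at -0.32 with an adjusted p of 0.016. The direction of Hist3h2a therefore depends on the probe.

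H2B was the one type with members called lower. Of 8 tested probes 6 were called higher, with ratios of 1.14 to 1.55 and adjusted p of 1.7e-04 to 0.0039, and 2 were called lower. Hist1h2bk had levels of 12.28 and 11.77 in vitro, against 10.62 and 10.34 in thymic preps on 1 probe (1.55 ± 0.19). Its other probe had 13.26 and 12.72 in vitro, against 11.71 and 11.55 in thymic preps (1.36 ± 0.18). Hist1h2ba, known as an H2B of the testis, had 12.19 and 11.61 in vitro, against 10.53 and 10.39 in thymic preps (1.45 ± 0.19). In each of these the lower in vitro prep stayed above both thymic preps.

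Hist1h2bm (1.39 ± 0.17) and Hist3h2bb (1.29 ± 0.19) had similar ratios. Hist1h2bc stood out by its close preps, at 9.24 and 9.25 in vitro, against 8.15 and 8.05 in thymic preps (1.14 ± 0.06). The probe of Hist3h2bb listed an accession of H2bu2, the RefSeq name of Hist3h2ba, and the 2 names gave opposite directions, so the gene behind each is uncertain.

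Hist2h2be had levels of 10.20 and 10.18 in the in vitro preps, against 10.52 and 10.50 in the thymic preps. All 4 of its array ratios lay between -0.34 and -0.30, for a mean of -0.32 ± 0.06 (1.25-fold lower, adjusted p = 0.0072). The preps of a kind nearly coincided and the kinds did not overlap, but the direction depends on the normalization: with median centring the ratio was 0.26 and was called higher. Without thymic prep 1 it was -0.31 (adjusted p = 0.11) and without thymic prep 2 -0.34 (adjusted p = 0.092).

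Hist3h2ba had levels of 10.41 and 9.85 in vitro, against 10.85 and 10.80 in thymic preps, a log2 ratio of -0.70 ± 0.18 (1.62-fold lower, adjusted p = 0.026). Most of its spread lay between the in vitro preps, both of which were below both thymic preps. With median centring the ratio was -0.10 (adjusted p = 0.63). Without thymic prep 1 it was -0.67 (adjusted p = 0.068) and without thymic prep 2 -0.72 (adjusted p = 0.061). Leaving out a thymic prep thus moved these 2 ratios little, although the calls were lost. Calls became fewer over the whole array in those fits, so the loss is not particular to these probes. The 2 lower calls also rest on the loess normalization.

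**Figure D2:**
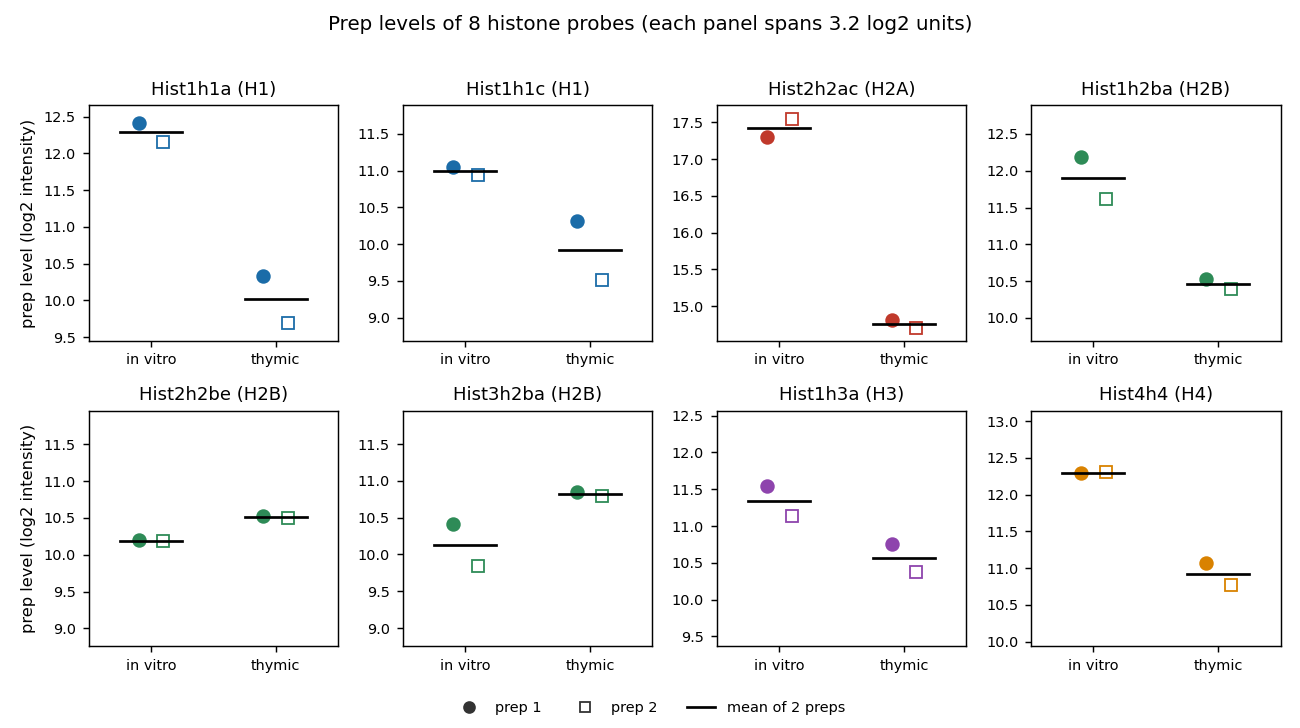
Prep levels (log2 intensity, vertical axis) of 8 histone probes in in vitro-derived preps, on the left of each panel, and thymic preps, on the right; filled circles are prep 1, open squares prep 2 and bars the mean of 2 preps. Each panel has its own axis of equal span, so that differences but not levels can be compared between panels; the kinds do not overlap in any of the 8.

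H3 had the smallest median log2 ratio of the 5 types, 0.77, and the difference between types was not tested. With median centring it was 1.85, against 2.07 for H2B and 2.09 for H1. Its 3 probes were all called higher, at 0.69 to 0.78, or 1.62-fold to 1.71-fold. Hist1h3a had levels of 11.55 and 11.13 in vitro, against 10.75 and 10.38 in thymic preps (0.78 ± 0.18, adjusted p = 0.018). Hist2h3c1, on a probe that listed 3 genes, had 16.83 and 16.43 in vitro, against 16.02 and 15.70 in thymic preps (0.77 ± 0.17, adjusted p = 0.014). Hist1h3d, on a probe that listed 4, had 16.11 and 15.71 in vitro, against 15.33 and 15.10 in thymic preps (0.69 ± 0.15, adjusted p = 0.015). For all 3 the lower in vitro prep was within 0.5 log2 units of the higher thymic prep, and none overlapped. Without thymic prep 2 the ratios were 0.59, 0.61 and 0.58 and the calls were lost, with adjusted p of 0.078, 0.067 and 0.059. Without in vitro prep 1, Hist1h3a was at 0.57 with an adjusted p of 0.062.

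H4 pairs with H3 in the nucleosome. All 7 tested probes were called higher, with ratios of 1.10 to 1.51 (2.14-fold to 2.85-fold) and adjusted p of 1.9e-04 to 0.0012. Hist1h4d had levels of 12.57 and 12.72 in vitro, against 11.22 and 11.05 in thymic preps on the probe that listed 1 gene (1.51 ± 0.09). Its other probe listed 4 genes and gave 1.33 ± 0.10. Hist4h4, the gene of the Hist4 cluster, had 12.29 and 12.30 in vitro, against 11.07 and 10.77 in thymic preps (1.38 ± 0.11). The in vitro preps of this gene were almost equal, and the spread lay between the thymic preps.

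Hist2h4 had levels of 13.94 and 13.95 in vitro, against 12.75 and 12.47 in thymic preps (1.33 ± 0.10), and Hist1h4f gave 1.30 ± 0.11. Hist1h4a had 13.65 and 13.63 in vitro, against 12.71 and 12.38 in thymic preps (1.10 ± 0.12). Hist1h4i had 11.94 and 11.92 in vitro, against 10.89 and 10.77 in thymic preps (1.10 ± 0.07). The same arrangement, with close in vitro preps above thymic preps that lay farther apart, held for these probes too.

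By cluster, the calls that were not higher lay outside Hist1. All 22 tested probes of Hist1 were called higher (median 1.38), as was the 1 probe of Hist4 (1.38). Of the 5 probes of Hist2, 4 were called higher and 1, Hist2h2be, lower (median 1.33). Of the 5 of Hist3, 3 were called higher, 1, Hist3h2ba, lower, and 1 was not called (median 1.29). These counts are small, and the difference between clusters was not tested.

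The preps of 1 kind differed by histone type. The difference between in vitro preps was taken between the 2 arrays that share a thymic partner, as the ratio of prep 1 minus that of prep 2, and averaged over the partners. It therefore also holds any difference between those arrays. Over all tested probes it had an SD of 0.19, with 5% of probes below -0.30 and 5% above 0.30. Its median was 0.52 over the 8 H2B probes and 0.40 over the 3 H3 probes, against -0.26 over the 10 H2A probes, 0.12 over the 5 H1 probes and 0.01 over the 7 H4 probes. The median of H4 changed sign with 1 thymic partner alone and with median centring, and that of H3 was 0.27 with median centring. The signal of in vitro prep 1 was thus higher on most H2B probes and on the 3 H3 probes, and that of prep 2 on most H2A probes. The H2B probes of Hist1h2bc (-0.01) and Hist2h2be (0.02) differed little between the preps. The H2A median lay within the limits of -0.30 and 0.30.

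In vitro prep 1 exceeded prep 2 by at least 0.3 for 6 of 8 H2B probes, 3 of 3 H3 probes and 1 of 10 H2A probes, against 4.83% of the array. The H2A probe was A_52_P615375 of Hist3h2a, at 0.34. Prep 1 lay below prep 2 by at least 0.3 for 3 H2A probes (Hist1h2af, Hist1h2ak and Hist1h2ai), against 5.08% of the array. The largest differences were those of Hist3h2bb (0.58), Hist1h2ba (0.57) and Hist3h2ba (0.56). Hist3h2bb and Hist1h2ba were called higher in vitro and Hist3h2ba lower, so probes with opposite ratios shared the direction of the prep difference. No H1 or H4 probe reached 0.3 in either direction. With 1 prep on each side there is no test of these differences, and probes that share copies are not independent.

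Most histone probes were higher in thymic prep 1, some of them by little. Prep 1 was above prep 2 with both in vitro partners for 31 of 33 histone probes, and below for 2, Hist1h2ab and Hist1h2ae. The median difference was 0.37 over H1, 0.32 over H3, 0.28 over H4, 0.15 over H2B and 0.09 over H2A. Over all tested probes it had a median of -0.01 and an SD of 0.11, with 5% of probes below -0.15 and 5% above 0.16. The medians of H2A and H2B lay within that range. The share of the array above with both partners was not counted. A difference of at least 0.3 was seen in 7 of 33 histone probes, namely Hist1h1a (0.64), Hist1h1c (0.80), Hist1h1d (0.37), Hist1h3a (0.37), Hist2h3c1 (0.32), Hist1h4a (0.33) and Hist4h4 (0.31), against 1.22% of the array. H1 and H4, whose in vitro preps differed little, were thus among the types whose thymic preps differed most.

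**Figure D3:**
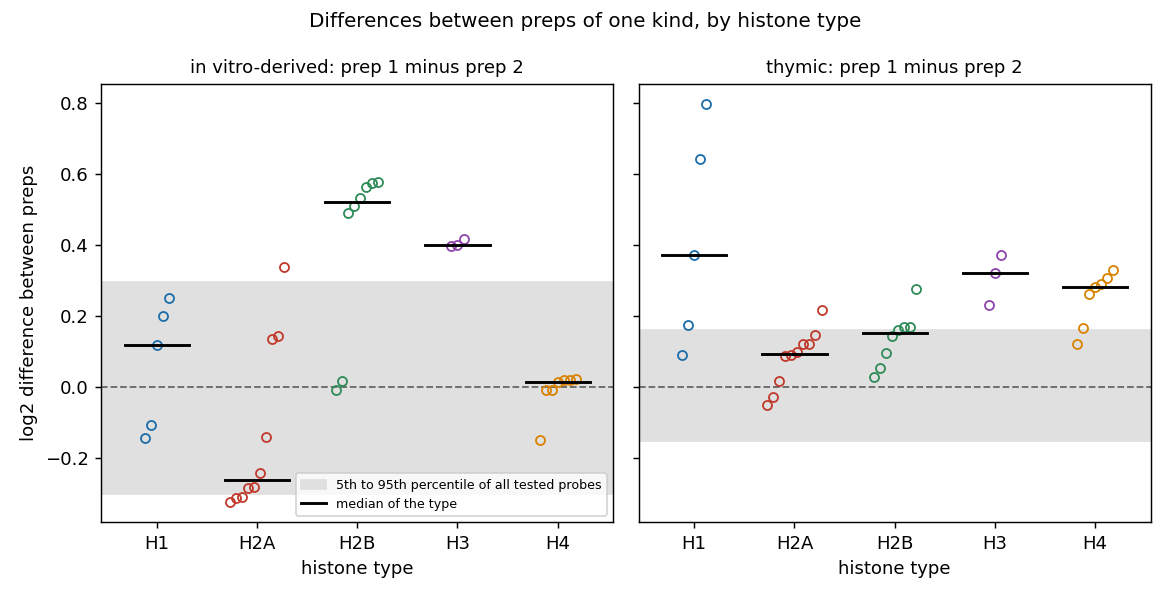
Log2 differences between prep 1 and prep 2 (vertical axis) of each tested histone probe, by type, for in vitro-derived preps on the left and thymic preps on the right; bars are medians and the grey band spans the 5th to 95th percentile of all tested probes. On the left the medians of H2B (0.52) and H3 (0.40) lie above the band, and that of H2A (-0.26) lies inside it, near its lower edge. On the right H1, H3 and H4 have medians of 0.28 to 0.37.

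Genes for the replacement histones were measured for comparison. These genes lie outside the clusters, and most of them make polyadenylated mRNA throughout the cell cycle. Of 12 tested genes 9 were called higher and 2 lower, against 26.6% and 25.6% of the array, with a median log2 ratio of 0.94. H2afv and H2afz encode H2A.Z proteins and had ratios of 1.98 ± 0.06 and 1.85 ± 0.08. H2afz had levels of 16.70 and 16.86 in vitro, against 14.91 and 14.94 in thymic preps. H2afx, whose protein is phosphorylated at DNA breaks, had 15.21 and 15.65 in vitro, against 13.86 and 13.89 in thymic preps (1.56 ± 0.15). The kinds did not overlap for either gene.

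H1f0, a linker histone gene of differentiated cells, had a ratio of 1.49 ± 0.12, and H3f3b, which encodes H3.3, had 0.93 ± 0.18. H2afj and H2afy3 were called lower, at -0.32 ± 0.07 and -0.50 ± 0.07. H1foo, a linker histone of the oocyte, was not called (-0.12 ± 0.07, adjusted p = 0.19). With median centring H2afj was at 0.24, and H2afy3 was at -0.06 and not called. Without thymic prep 1 H2afj was at -0.30 (adjusted p = 0.14) and without thymic prep 2 at -0.35 (adjusted p = 0.1), so that 1 lower call remained in the list each time.

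Genes that act on histone messages were called in both directions. Of 21 tested genes of histone gene transcription, 3′ end processing and decay, 8 were called higher, 3 lower and 10 not, with a median of 0.17. The share called is near the 52.2% of the array and is no result about these genes. Ccne2 and Cdk2, a cyclin E and its kinase, which act on Npat, had ratios of 1.44 ± 0.12 and 0.95 ± 0.08. Slbp, the stem-loop binding protein gene, had levels of 14.44 and 14.58 in vitro, against 13.58 and 13.61 in thymic preps (0.92 ± 0.07, adjusted p = 4.6e-04). Lsm11, a component of the U7 snRNP that cleaves histone pre-mRNA, had 0.97 ± 0.13. Npat, the coactivator of histone gene transcription, was not called (0.34 ± 0.12, adjusted p = 0.068), and was called without in vitro prep 2 (0.51, adjusted p = 0.0036).

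The 3 genes called lower were Lsm1, of mRNA decay (-0.63 ± 0.07), and the 3′ end cleavage genes Cpsf3 (-0.36 ± 0.06) and Cpsf2 (-0.30 ± 0.08). The signs of all 3 turned with median centring, to 0.19, 0.46 and 0.41. Without thymic prep 1 Cpsf3 had an adjusted p of 0.073 and Cpsf2 of 0.19, and without thymic prep 2 of 0.073 and 0.13, which left 1 lower call. Cpsf2 was also not called without in vitro prep 1 (-0.21, adjusted p = 0.063) or with the background model fitted on all spots (-0.32, adjusted p = 0.058). The other 2 probes of Cpsf2 were not called.

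Histone chaperones carry histones to DNA. Of 20 tested genes 11 were called higher and 4 lower, against 26.6% and 25.6% of the array, with a median of 0.35. The lower calls are not more than the array's share. Anp32e, a chaperone of H2A.Z, had 1.78 ± 0.10, Chaf1a, a subunit of the assembly factor CAF-1, 0.98 ± 0.09, and Hjurp, the chaperone of CENP-A, 0.93 ± 0.08. Nasp, an H1 and H3-H4 chaperone, had levels of 14.74 and 14.73 in vitro, against 14.08 and 14.10 in thymic preps (0.64 ± 0.06). Daxx, a chaperone of H3.3 (-0.98 ± 0.06), the importin gene Ipo4 (-0.80 ± 0.06) and Set (-0.69 ± 0.06) were the lowest. With median centring Daxx and Set were above 0, at 0.0053 and 0.24, and Ipo4 was at -0.14 and not called.

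Most genes of DNA synthesis shared the direction of the histones. Of 27 tested S phase genes 25 were called higher and 1 lower, against 26.6% and 25.6% of the array, with a median of 1.08. Rrm2, a ribonucleotide reductase subunit gene, had levels of 13.10 and 13.55 in vitro, against 10.88 and 11.05 in thymic preps (2.36 ± 0.16). The nucleoside transporter gene Slc29a1 had a ratio of 1.85 ± 0.06 and the thymidylate synthase gene Tyms 1.75 ± 0.07. At the low end were the uracil glycosylase gene Ung (-0.66 ± 0.07, and 0.14 with median centring), Mcm2 (-0.08 ± 0.06, not called) and Mcm5 (0.44 ± 0.07). Mcm5 had an adjusted p of 0.059 without thymic prep 2.

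By their medians, the related lists had smaller prep differences than H2B and H3. For S phase genes the median difference of in vitro prep 1 minus prep 2 was -0.16 and that of thymic prep 1 minus prep 2 was -0.04. For variant histones the medians were -0.12 and -0.01, and for the message machinery -0.13 and -0.01. The medians of H2B and H3 given above had the opposite sign in the in vitro preps. Single variant histones departed from their list's median. The in vitro difference was 0.47 for H3f3b and 0.23 for H3f3a, but -0.19 for Cenpa. It was -0.44 for H2afx, -0.16 for H2afz and -0.08 for H2afv. The thymic difference was 0.27 for H3f3b and -0.03 for H3f3a. It was -0.03 for H2afx, -0.03 for H2afz and -0.01 for H2afv, against a median of 0.09 over the clustered H2A probes. Among the in vitro differences of these named genes, only those of H3f3b and H2afx lay outside the array limits of -0.30 and 0.30. All these differences describe single preps, with no test. Whether the prep differences of H3 and H2A are particular to the clustered genes was therefore not tested.

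**Figure D4:**
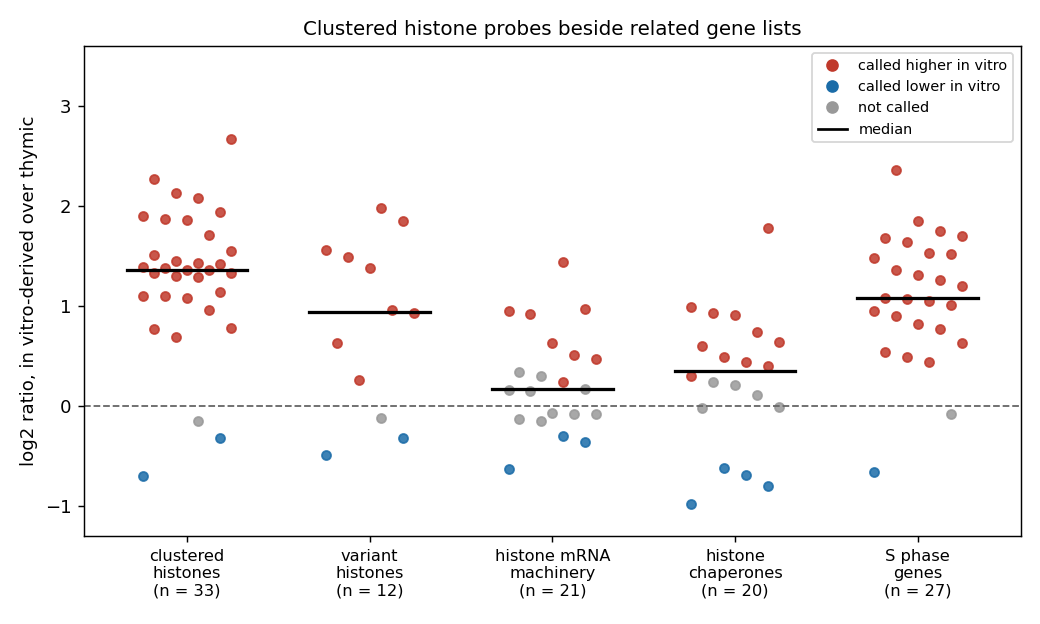
Log2 ratios, in vitro-derived over thymic (vertical axis), of the 33 tested clustered histone probes and of 4 lists of related genes, 1 probe a gene; red points were called higher, blue lower and grey not called, and bars are medians. The clustered histones have a median of 1.36 and the S phase genes 1.08, and the message machinery lies nearest to 0, at 0.17.

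Markers of CD8 T cells and of other cells were compared between the kinds. The counts below stand beside 26.6% of the array called higher and 25.6% lower. All 9 CD8 T cell markers were well above background in both kinds; 7 were called lower in vitro and 1, Lck, higher, with a median log2 ratio of -0.59. With median centring 7 were called higher and 0 lower, with a median of 0.38. Lck (0.49) was not called with Agilent's signals, with the deposited ratios, with the background model fitted on all spots, without thymic prep 1 (0.53, adjusted p = 0.06) or without thymic prep 2 (0.46, adjusted p = 0.099). Of 9 markers of immature double-positive thymocytes 8 were tested and 6 called higher, with a median of 3.55. Their summed linear level was 309169 and 223863 in the in vitro preps, against 18108 and 18352 in the thymic preps. Dntt was the brightest of the list in vitro, at 17.73 and 17.14, and weighs most on those sums. Rag2 was not tested for lack of signal and Cd1d1 was not called. Cd4 was not called on its brighter probe and called higher on the other. Of 15 stromal markers 12 were tested, 10 called higher and 1 lower, with a median of 1.45. Of these, Col6a1, Fn1 and Postn were well above background in no thymic channel, and with the filter on both channels 6 were called higher, with a median of 2.34. Pdgfrb had levels of 12.01 and 12.03 in vitro, against 7.37 and 7.29 in thymic preps (4.69 ± 0.06), and Col1a1 of 11.30 and 11.53 in vitro, against 7.70 and 7.70 in thymic preps (3.71 ± 0.09). The summed level of the list was 26605 and 27429 in the in vitro preps, against 27034 and 28350 in the thymic preps. Acta2, the brightest of the list, had levels of 13.63 and 13.54 in vitro, against 14.45 and 14.54 in thymic preps on its brightest probe. These sums therefore do not show the direction of the other markers. Of the other 2 tested probes of Acta2, 1 was called higher and 0 lower, so its direction depends on the probe. The stromal markers Pdgfra, Lum and Dcn were not tested for lack of signal. Of the B cell markers 5 were tested and 1 was called, lower, with a median of -0.02. Of the myeloid markers 5 were tested, 2 called higher and 2 lower, with a median of 0.14. Itgam, called higher, was well above background in no thymic channel. With the filter on both channels 1 myeloid marker was called higher, with a median of -0.15. The part of such cells in the histone ratios was not tested.

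The labelling kit amplifies RNA with a T7-based reaction, and kits of this kind usually prime on poly(A) tails. The labels do not state the primer, and the share of histone messages that carried a tail was not tested. Each ratio above is one of the labelled RNA, with all its copies that bind the probe.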

How the data were processed

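Total RNA of 2 preps of each kind was amplified and labelled, and hybridised to 4 two-colour arrays, per the labels' protocols. The authors deposited scanner files with intensity values per spot; per the file headers the software was Agilent Feature Extraction, version 9.5.1.1. The deposited table holds log10 ratios of Cy5 over Cy3, which correlated at 0.9999 or more with the scanner's own log ratio. Its array medians are 0. Background was corrected with normexp (offset 50) on mean signal and local background, without spots marked by the scanner software (133 to 187 per array). Ratios were normalized within arrays by loess in limma 3.58.1 (R 4.3.3). A probe was tested if 1 channel or both stood well above background on every array and its 4 values were unmarked (27224 of 41174). The 4 ratios were turned into 4 prep values, because each prep lies on 2 arrays, and these were tested with lmFit and eBayes. The fit was tested on simulated data. Correlations between arrays over tested probes were 0.943 to 0.983, and all arrays shared a slide and a scan. The number of preps limits the precision.

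The histone genes, the related lists and the markers were chosen with earlier results of these data known. Named were all H1 probes, the 3 highest and 3 lowest of the other types, all of Hist2 to Hist4, genes with 2 or more tested probes, the 3 largest in vitro prep differences, and of each related list the 3 highest and 3 lowest genes with 7 fixed ones. Alternatives were other background and normalization settings, filters, probe rules, the deposited ratios, arrays taken as independent, and each prep or array left out. Promoters are RefSeq's, build GRCm38.p6.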

Additional observations from a re-analysis of the deposited data

Results flagged for a closer look

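Probes of Hist1h2aa, known as an H2A gene of the testis, and of Hist1h2af were left out of the test because the scanner software had marked 1 spot of each, on array 1 and array 3. Both were well above background in both channels on all 4 arrays. On the 3 arrays without a mark the probe of Hist1h2aa (A_51_P405773) had log2 ratios, in vitro over thymic, of 2.97, 2.85 and 3.10, with a mean of 2.97. The probe of Hist1h2af (A_52_P165633) had 2.70, 2.93 and 3.12, with a mean of 2.92. Both means are above the highest tested histone ratio, 2.67 for Hist2h2ac, which is a mean of 4 arrays. Hist2h2ac had its lowest ratio, 2.47, on array 1, the array left out for Hist1h2aa. With marked spots kept, the ratios were 2.89 ± 0.11 (adjusted p = 6.2e-05) and 2.91 ± 0.11 (adjusted p = 5.6e-05) in limma (SE, n = 2 preps of each kind).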

How the results depend on the processing

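The count of histone probes called higher was 27 to 32 over the 20 alternatives, the 27 being of 29 genes. Median centring in place of loess moved the median of all tested probes to 0.37, against 0.03, and the share of calls that were higher to 83.6%, against 51.0%. With it 32 histone probes were called higher and 0 lower, and the median histone ratio was 2.09. In that setting 0 variant histones were called lower, the message machinery had 20 calls higher and 0 lower, the chaperones 17 and 0, and the S phase genes 0 lower. Called ratios of named genes that turned with it were those of Hist2h2be (0.26), H2afj (0.24), Cpsf2 (0.41), Cpsf3 (0.46), Lsm1 (0.19), Daxx (0.0053), Set (0.24), Ung (0.14), Cd8a (0.42), Cd8b1 (0.38), Cd3e (0.26), Acta2 (0.037) and Cd79b (0.22), and the median of CD8 T cell markers (0.38). Of the named ratios that had not been called, Hist3h2a A_52_P615375 (0.49), H1foo (0.38), Mcm2 (0.76) and Cdh11 (0.60) also changed sign and were called higher, and Pax5 (-0.16) changed sign without a call. The type medians with it were 2.09 for H1, 2.65 for H2A, 2.07 for H2B, 1.85 for H3 and 2.18 for H4. The median in vitro prep difference was 0.27 over H3 and -0.075 over H4 with it, and -0.015 over H4 with thymic partner 1 alone. The median of B cell markers, -0.02, turned to 0.046 with Agilent's processed signals and with the deposited ratios, to 0.017 without a filter and ranged over -0.069 to 0.020 with 1 prep or array left out. That of myeloid markers, 0.14, turned to -0.15 with the filter on both channels and to -0.0087 without a filter. With arrays taken as independent the machinery had 13 calls higher and 5 lower.

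Over the results that leave out 1 prep or 1 array, 28 to 31 histone probes were called higher and 0 to 3 lower, 0 without either thymic prep. The same range was 1 to 2 lower for variant histones and 1 to 3 for the machinery. With 1 prep left out, the lone prep of that kind is assumed to vary like the other kind. Without either thymic prep, fewer probes of the whole array were called than without either in vitro prep. A call lost without a thymic prep is therefore not particular to the gene named. Of the single histone ratios over the alternatives, 581 kept their direction and side of the threshold, 10 lost the call, 2 gained it and 1 turned. The cause of these changes was not tested. Arrays give no count depth: for 9 histone probes the signal over background was too low for a test.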
